A study of Arabidopsis thaliana with 8 samples.

Results

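EXPA8, EXPA16, EXO and ARL are 4 Arabidopsis genes of cell expansion, chosen by name from the 13356 genes that had a named probe set of their own. A probe set is a group of short array probes meant to read 1 gene, though 503 of those tested were annotated to several genes. Each of the 4 genes had 1 probe set (255822_at for EXPA8, AT2G40610; 251791_at for EXPA16, AT3G55500; 255064_at for EXO, AT4G08950; 267230_at for ARL, AT2G44080), out of 22746 probe sets tested. The choice rested partly on measured values: EXPA16 and ARL had stood out in the difference between the lines before cold, EXO in the cold response of the transgenic line, and EXPA8 came from a list of growth genes. Those contrasts, and others that share arrays with them, are therefore described below without a test.

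Total RNA of whole seedlings aged 10 days was measured on Affymetrix arrays, 1 sample per array. The lines were wild type (ecotype Col-1) and L20, in which the wheat bZIP transcription factor TabZIP6 is overexpressed. Seedlings of each line were collected before cold at 22 °C, or after 6 h at 4 °C. This gave 4 groups with 2 biological replicates each, 8 arrays in all. No group was kept at 22 °C for the same 6 h. Cold therefore cannot be told apart from the time elapsed or the time of day, and cold response here means this comparison. L20 is a single transgenic line, and its promoter, its ecotype and any pooling of plants are not given in the sources used here. TabZIP6 has no probe set on the array and its level was not analysed here. Whether the replicates came from separate cultures is not stated, so p-values cover only the spread between samples, which may be partly technical.

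A plant cell enlarges when its wall yields to the pressure inside it. Alpha-expansins, to which EXPA8 and EXPA16 belong, are secreted proteins that loosen the contacts between cellulose and other wall polymers without cutting them. EXO (EXORDIUM) is a wall-associated protein needed for normal leaf cell expansion and known as a target of brassinosteroids, the steroid hormones of plant growth. ARL (ARGOS-LIKE) is also induced by brassinosteroids and promotes organ growth through larger cells.

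The array medians lay between 4.95 and 5.05 in log2 signal, the deposited scale, on which 1 unit is a doubling. The upper quartile was lowest in the first unchilled wild-type replicate, at 6.28, and reached 6.64 in the first unchilled replicate of L20. As a check of tissue, RCA, the activator of the carbon-fixing enzyme of green tissue, was the 1 of 9 leaf markers with a named probe set. It stood between 12.6 and 13.5. The root gene BGLU23, the 1 of 12 root markers with a named probe set, stood between 8.51 and 9.60. Before cold BGLU23 was at 8.76 and 9.04 in wild type and at 9.32 and 9.60 in L20, so the lines did not overlap, with a log2 difference of 0.56 ± 0.35 (SE; limma adjusted p = 1.00), while RCA differed by -0.10 ± 0.24. The other leaf and root markers and all seed and flower markers listed had no named probe set. The log2 signal of the actin 3' minus 5' control probe sets, a sign of RNA integrity, lay between 1.24 and 1.72. The same difference lay between -0.89 and -0.20 for the GAPDH controls and between -2.19 and -0.68 for the ubiquitin controls, the latter lower in replicate 1 than in replicate 2 of all 4 groups. The part of tissue makeup and RNA quality in the results was not tested. In whole seedlings, fewer cells of a type and less RNA per cell cannot be told apart.

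**Figure D1:**
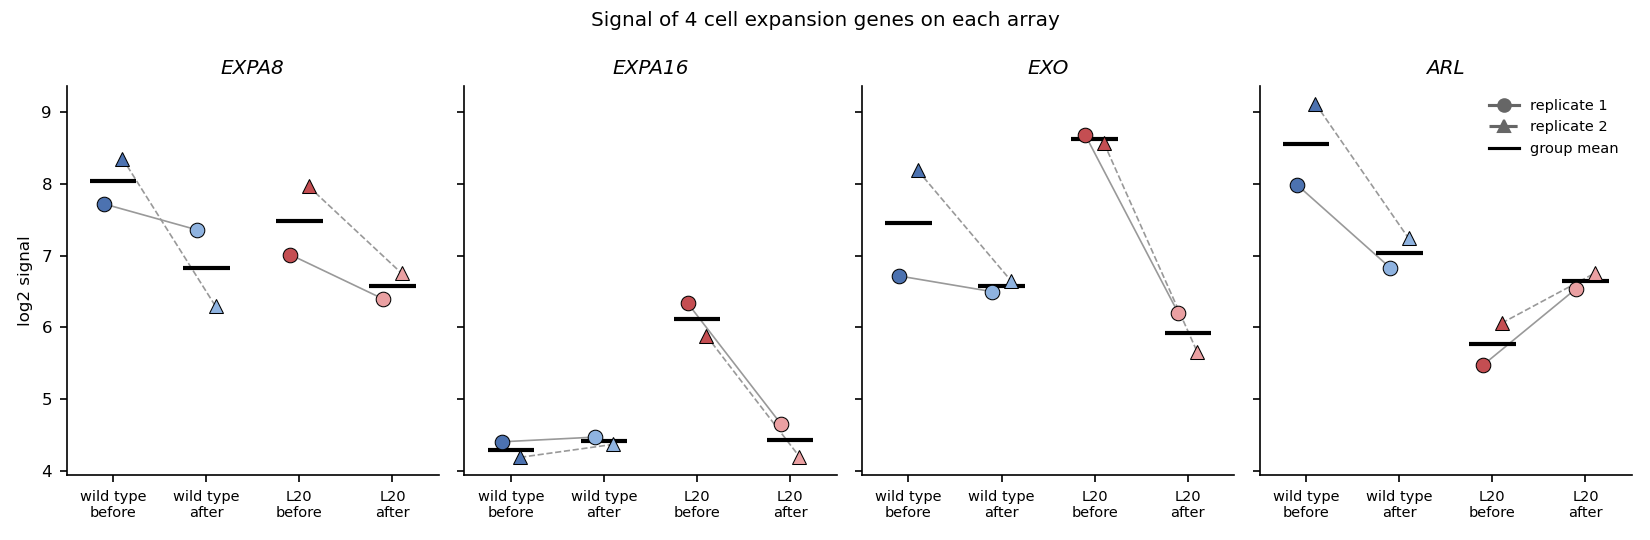
Log2 signal (vertical axis) of EXPA8, EXPA16, EXO and ARL in wild type and L20 before and after cold. Circles and triangles are replicates 1 and 2, bars are group means of 2 arrays, and thin lines join arrays with the same replicate number. EXPA16 stood above 5.8 on both arrays of L20 before cold and at 4.20 to 4.66 on the other 6, and levels of different genes are not to be compared.

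EXPA16 was high in 1 of the 4 groups. Its log2 signal was 6.34 and 5.89 on the arrays of L20 before cold, 4.41 and 4.20 in wild type before cold, 4.48 and 4.38 in wild type after cold, and 4.66 and 4.20 in L20 after cold. The arrays of unchilled L20 lay above all the others, with a gap of 1.23, while the other 6 arrays spanned 0.47 among themselves and overlapped between groups. Before cold the mean was 6.11 ± 0.32 in L20 and 4.30 ± 0.15 in wild type (log2 signal, SD, n = 2), a log2 difference of 1.81 ± 0.24 (SE). With cold it changed by -1.68 ± 0.24 in L20 and by 0.12 ± 0.24 in wild type (log2 difference, SE). The change in L20 was nearly the same in both replicate numbers, at -1.67 and -1.68. On the 6 lower arrays EXPA16 stood below the median of all probe sets of its array, and its signal over background was not analysed here, so no fold is given. Both arrays of unchilled L20 above the other 6 occurred in 7.33% of probe sets, and 18 probe sets had a gap at least as wide as that of EXPA16. Because EXPA16 was chosen on the difference before cold, its wide gap follows in part from the choice.

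After cold, on arrays that played no part in choosing it, EXPA16 was at 4.43 ± 0.32 in L20 and 4.43 ± 0.07 in wild type (log2 signal, SD, n = 2). The log2 difference of 0.01 ± 0.24 did not pass the test (limma, Benjamini-Hochberg adjusted p = 1.00), and its 95% interval ran from -0.56 to 0.57. Differences in both directions of up to about this size were therefore not resolved.

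ARL was high in unchilled wild type and low in unchilled L20. Its log2 signal was 7.98 and 9.11 in wild type before cold and 5.48 and 6.06 in L20 before cold. After cold it was 6.83 and 7.24 in wild type and 6.54 and 6.75 in L20. Both wild-type arrays before cold lay above all other arrays and both L20 arrays before cold below all others, with the 4 chilled arrays between them. Of all probe sets 2.22% had both of these wild-type arrays above the other 6, and 3.82% had both of these L20 arrays below the other 6. The mean before cold was 5.77 ± 0.41 in L20 against 8.55 ± 0.80 in wild type (log2 signal, SD, n = 2). This is a 6.86-fold lower level in L20. The difference ranked 5 from the bottom of 22746 probe sets, a rank that follows in part from choosing ARL on this contrast.

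The lines differed by 2.78 log2 units in ARL before cold, whereas the 4 chilled arrays spanned 0.70. With cold ARL changed by -1.51 ± 0.39 in wild type and by 0.88 ± 0.39 in L20 (log2 difference, SE), and the means of the lines lay closer together after cold than before it. The directions held in both replicate numbers, at -1.15 and -1.87 in wild type and at 1.06 and 0.69 in L20. The size in wild type rested on single arrays: it was -0.95 without replicate 2 of wild type before cold and -2.07 without replicate 1. After cold, on arrays not used for the choice, L20 minus wild type was -0.39 ± 0.39 (log2 difference, SE; limma adjusted p = 1.00), with a 95% interval from -1.32 to 0.54. The L20 arrays lay below the wild-type arrays there by a gap of 0.08.

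EXO was high in L20 before cold and low after it. Its log2 signal was 8.67 and 8.56 in L20 before cold and 6.20 and 5.66 after it. In wild type it was 6.72 and 8.18 before cold and 6.50 and 6.65 after it. Unchilled L20 held the highest values and chilled L20 the lowest of all 8 arrays, and the arrays of neighbouring groups in the order of means did not overlap. Both arrays of unchilled L20 lay above the other 6 in 7.33% of all probe sets, and both arrays of chilled L20 below the other 6 in 1.19%. EXO was 6.44-fold lower after cold in L20, with a mean of 5.93 ± 0.38 against 8.62 ± 0.08 (log2 signal, SD, n = 2). This difference of -2.69 ± 0.45 (SE) ranked 13 from the bottom of 22746 probe sets, and it was -2.48 and -2.90 in the replicate numbers. EXO was chosen on this contrast, so its rank follows in part from the choice.

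In wild type, on arrays that did not choose it, EXO differed by -0.87 ± 0.45 with cold (log2 difference, SE) and did not pass (limma adjusted p = 0.939). The adjusted p ran from 0.188 to 1.00 over 15 alternatives. The wild-type replicates before cold stood apart, with replicate 1 minus replicate 2 at -1.47, and the change was -0.22 in replicate 1 and -1.53 in replicate 2. The same pair of arrays set the difference between the lines before cold, which was 1.17 ± 0.45 in favour of L20, 0.43 without replicate 1 of wild type before cold and 1.90 without replicate 2. After cold L20 stood below wild type by -0.64 ± 0.45 (log2 difference, SE), a value shown without a test because it shares the chilled L20 arrays. It was -0.30 and -0.99 in the replicate numbers, -0.91 without replicate 1 of L20 after cold and -0.38 without replicate 2.

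EXPA8 differed with cold in the same direction in both lines. Its log2 signal was 7.72 and 8.35 in wild type before cold and 7.36 and 6.29 after it. In L20 it was 7.01 and 7.96 before cold and 6.40 and 6.75 after it. Within each line both chilled arrays lay below both unchilled arrays, while neighbouring groups in the order of means overlapped. That order was unchilled wild type, unchilled L20, chilled wild type and chilled L20. The cold difference in wild type was -1.21 ± 0.46 (log2 difference, SE), 2.31-fold lower after cold, and did not pass over all probe sets (limma adjusted p = 0.627, unadjusted p = 0.0334). It was -0.36 in replicate 1 and -2.05 in replicate 2, and -0.68 without replicate 2 of wild type after cold. In L20 the difference was -0.91 ± 0.46, with -0.62 and -1.21 in the replicates, and -0.44 without replicate 2 of L20 before cold.

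Between the lines the arrays of EXPA8 overlapped both before and after cold. L20 minus wild type was -0.55 ± 0.46 before cold and -0.25 ± 0.46 after cold (log2 difference, SE; limma adjusted p = 1.00 after cold). The value before cold rested on single arrays: leaving out replicate 1 of unchilled L20 gave -0.07, and leaving out its replicate 2 gave -1.02. The 95% interval after cold, from -1.33 to 0.83, includes changes of over 1 log2 unit downwards. The sign after cold differed between the replicates, at -0.96 and 0.46. Without replicate 1 of wild type after cold the difference was 0.28.

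**Figure D2:**
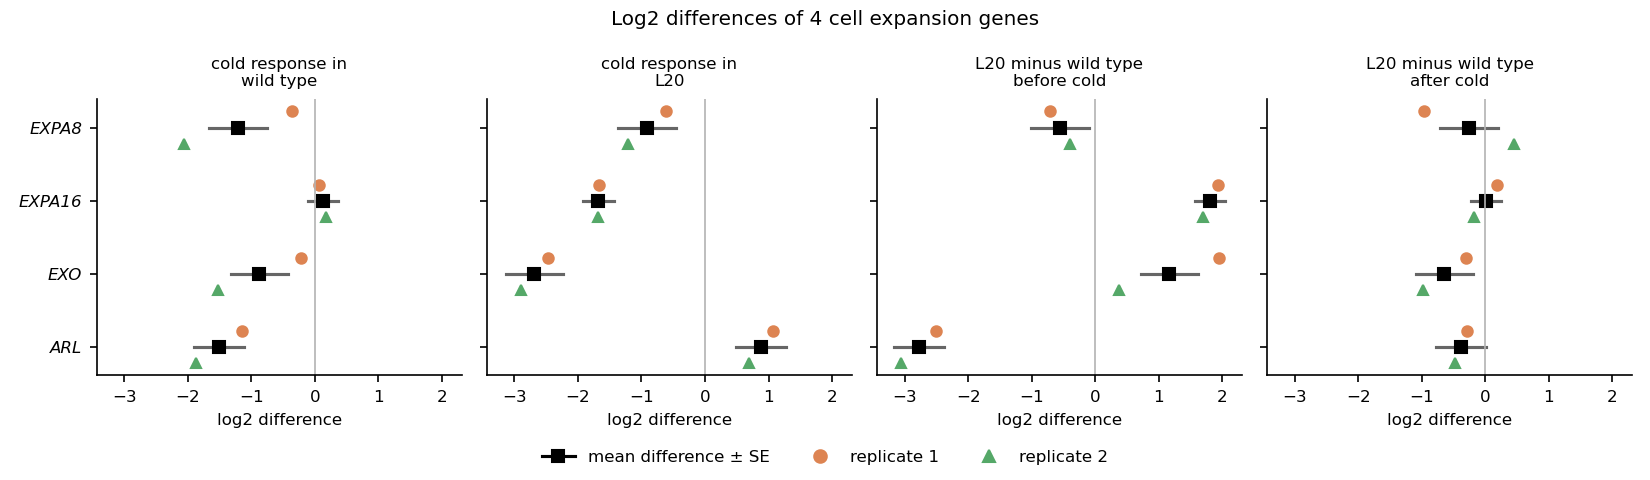
Log2 differences (horizontal axis) of the 4 genes in the cold response of each line and in L20 minus wild type before and after cold. Squares with bars are means with the standard error of limma, and circles and triangles are the differences within replicate numbers 1 and 2. The differences between the lines reached -2.78 for ARL before cold and lay between -0.64 and 0.01 after cold.

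Set side by side, the 4 genes did not share 1 pattern. Before cold 2 of 4 stood higher in L20 (EXPA16, EXO) and 2 lower (EXPA8, ARL), and with cold in L20 3 of 4 stood lower while ARL stood higher. The arrays of the groups did not overlap for 3 of 4 members in the cold response of wild type (29.2% of all probe sets), for 4 of 4 in that of L20 (33.6%), for 3 of 4 between the lines before cold (27.7%) and for 2 of 4 after cold (14.8%). The rule drew on some of these contrasts, and nothing is read from the counts. Over the 8 arrays EXPA16 correlated with EXO at 0.73 and with ARL at -0.75, and EXPA8 with EXO at 0.59 and with ARL at 0.46 (Pearson). EXPA8 with EXPA16 gave 0.08 and EXO with ARL -0.12. These values describe 8 arrays that share 4 groups and 2 replicate numbers.

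Across the array the log2 differences between the lines had a standard deviation of 0.37 before cold and 0.15 after it. Over all 22746 probe sets limma called 0.0176% before cold, at an adjusted p under 0.05, and 0 after cold, where 19 (0.0835%) had an unadjusted p under 0.05 and a fit that took the replicate number as a block also called 0. The cold response called 0.532% in wild type and 0.378% in L20. At an unadjusted p under 0.05 there were 6.63% in the cold response of wild type, 9.73% in that of L20 and 5.54% between the lines before cold. None of the 4 genes was tested in the contrast that chose it. In the 5 tests on other arrays 0 of 5 passed, with EXPA8 in wild-type cold the 1 result at an unadjusted p under 0.05.

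The relatives of these genes were described from lists of the expansin superfamily, the EXO-like and ARGOS families, the xyloglucan endotransglucosylase/hydrolases (XTH, enzymes that cut and rejoin wall xyloglucan) and brassinosteroid synthesis and signalling. Of the other alpha-expansins 8 of 23 had a named probe set, of the beta-expansins and expansin-like genes 8 of 10, and of the XTH genes 10 of 33. The EXO-like genes (0 of 7) and the ARGOS family (0 of 2) had none. Of the 29 brassinosteroid genes listed only BRL1, a receptor of the BRI1 class, had a named probe set. BIM1, described at the end, was not on that list. In the annotation used, 8730 of the 22746 probe sets had no gene. Whether unnamed probe sets read the missing genes was not examined. BRL1 differed by 0.24 ± 0.21 with cold in wild type and by 0.11 ± 0.21 between the lines before cold (log2 difference, SE), and neither passed (limma adjusted p = 1.00 for both). Its log2 signal of 3.26 to 3.76 lay below the median of every array, so a change could be missed.

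None of the other alpha-expansins passed the test with 1 mean per group. By limma 0 of 8 were called in any of the 4 comparisons, with 0 of 8 at an unadjusted p under 0.05 in the cold response of wild type (6.63% of all probe sets), 1 of 8 in that of L20 (9.73%) and 0 of 8 between the lines before (5.54%) and after cold (0.0835%). Their median log2 difference was 0.03 with cold in both lines (0.03 and 0.00 over all probe sets in wild type and L20), 0.01 between the lines before cold (0.04 over all) and -0.03 after cold (0.00 over all). Before cold their differences lay between -0.48 and 0.51, against 1.81 for EXPA16. Since EXPA16 was chosen on this contrast and they were not, nothing is read from that distance. EXPA4, the member with the smallest p, had log2 signals of 6.52 and 6.91 in L20 before cold and 5.61 and 5.78 after it. Its difference of -1.01 ± 0.29 did not pass in the fit with 1 mean per group (limma adjusted p = 0.262). With the replicate number as a block it fell (limma adjusted p = 0.0408), in a fit that called 2.55% of all probe sets. EXPA15, next by p, differed by -0.46 ± 0.25 between the lines before cold (limma adjusted p = 1.00). EXPA18 (3.70 to 4.46), EXPA21 (4.24 to 4.54) and EXPA24 (3.99 to 4.31) lay below the median of every array in log2 signal. Their signal over background was not analysed here, so changes in these genes could be missed.

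Among the beta-expansins and expansin-like genes 1 of 8 was called, in the cold response of L20 (0.378% of all probe sets). This was EXPB3, which rose 3.19-fold (limma adjusted p = 0.0436). Its log2 signal went from 7.08 and 6.95 to 8.66 and 8.72, so both chilled arrays lay above both unchilled ones. The call was lost when any 1 of the 8 arrays was left out (limma adjusted p from 0.0680 to 0.264), while the log2 difference stayed between 1.61 and 1.74. It was also lost with trend and robust settings (limma adjusted p = 0.0700) and with only the 4 arrays compared (0.145). The call held with the replicate block (limma adjusted p = 0.0138) and quantile normalization (0.0266). Median centring (limma adjusted p = 0.0268) and the filter on dim probe sets (0.0346) kept it too. So did block, trend and robust settings together (limma adjusted p = 0.00837), chosen after seeing the data. In wild type EXPB3 differed by 0.93 ± 0.22 with cold and did not pass (limma adjusted p = 0.229, and 0.0744 with the replicate block). The median of these 8 genes was 0.49 with cold in wild type and 0.24 in L20, against 0.03 and 0.00 over all probe sets. Between the lines it was 0.03 before and -0.01 after cold, against 0.04 and 0.00. At an unadjusted p under 0.05 there were 4 of 8 in the cold response of wild type (6.63% of all probe sets), 1 of 8 in that of L20 (9.73%), 3 of 8 between the lines before cold (5.54%) and 0 of 8 after it (0.0835%). EXPB2, at 4.06 to 4.91 in log2 signal, lay below the median of every array.

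Of the XTH genes limma called 0 of 10 in each comparison. XTH21, XTH26, XTH29 and XTH33 lay at a log2 signal of 4.68 or lower, below the median of every array, so changes in them could be missed. At an unadjusted p under 0.05 there was 1 of 10 in the cold response of wild type (6.63% of all probe sets), 2 of 10 in that of L20 (9.73%), 1 of 10 between the lines before cold (5.54%) and 0 of 10 after it (0.0835%). XTH32 had the smallest p: it differed by 1.84 ± 0.29 with cold in L20 (limma adjusted p = 0.0703) and passed upwards with the replicate block (0.0253). Its log2 signal was 6.39 and 6.27 in L20 before cold and 8.56 and 7.78 after it. XTH27 differed by -1.51 ± 0.53 in L20 (limma adjusted p = 0.384), from 8.44 and 8.65 to 6.60 and 7.47. The XTH median was -0.09 with cold in wild type and -0.10 in L20, and -0.02 and -0.19 between the lines before and after cold, against 0.03, 0.00, 0.04 and 0.00 over all probe sets.

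**Figure D3:**
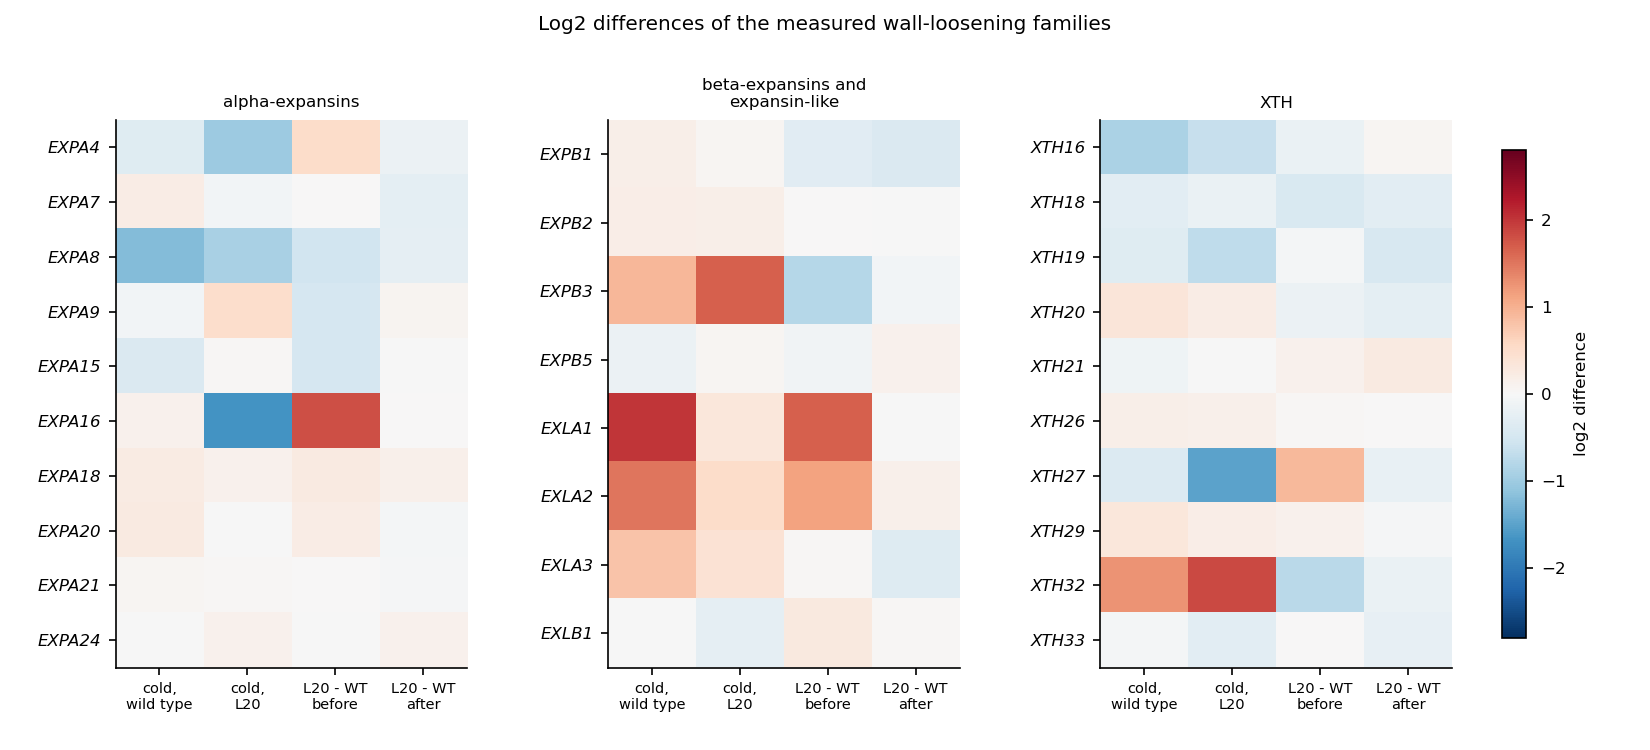
Log2 differences, as colour, of the measured alpha-expansins (with EXPA8 and EXPA16), beta-expansins and expansin-like genes, and XTH genes (rows) in 4 comparisons (columns: cold response of wild type and of L20, L20 minus wild type before and after cold). EXPA16, chosen on the difference before cold, has the strongest alpha-expansin colours, 1.81 before cold and -1.68 with cold in L20. The column of L20 minus wild type after cold is pale throughout.

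Genes with the profile most like that of each member were named as the 4 with the highest Pearson correlation over the 8 arrays, among genes with a standard deviation of at least 0.5. The arrays share groups and replicate numbers, so these values are descriptions. For EXPA8 the range was 0.89 to 0.94, with DRT100, STOMAGEN, which encodes a secreted peptide that promotes stomata, CSLA03, a gene of the cellulose synthase-like class, and AT3G23080. All 4 stood lower after cold in both lines, by 0.80 to 1.51 log2 units in wild type and 0.35 to 1.12 in L20. For EXPA16 it was 0.96 to 0.98, with AT5G45950, AT1G74790, AT3G02480 and AT5G41900. These stood 0.98 to 2.67 log2 units higher in L20 before cold and changed by -2.83 to -1.02 with cold in L20, while in wild type the change was between -0.24 and 0.16.

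EXO was most like AT3G01430, AT5G58375, PRA7, of the prenylated Rab acceptor family, and AT1G15400, at 0.95 to 0.98. With cold these 4 changed by -1.41 to -1.18 in L20 and by -0.82 to -0.24 in wild type (log2 difference), each less than EXO in L20. ARL was most like AT3G15760, AT2G34620, AT1G66090 and AT2G03310, at 0.92 to 0.96. They stood lower in L20 before cold, by -3.02 to -1.20, and changed by -2.61 to -0.86 with cold in wild type and by 0.05 to 0.91 in L20. AT3G15760, the closest, had log2 signals of 6.57 and 7.05 in wild type before cold, 4.92 and 5.04 in L20 before cold and between 5.66 and 6.24 on the 4 chilled arrays. As for ARL, the 4 chilled arrays lay between the unchilled groups.

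**Figure D4:**
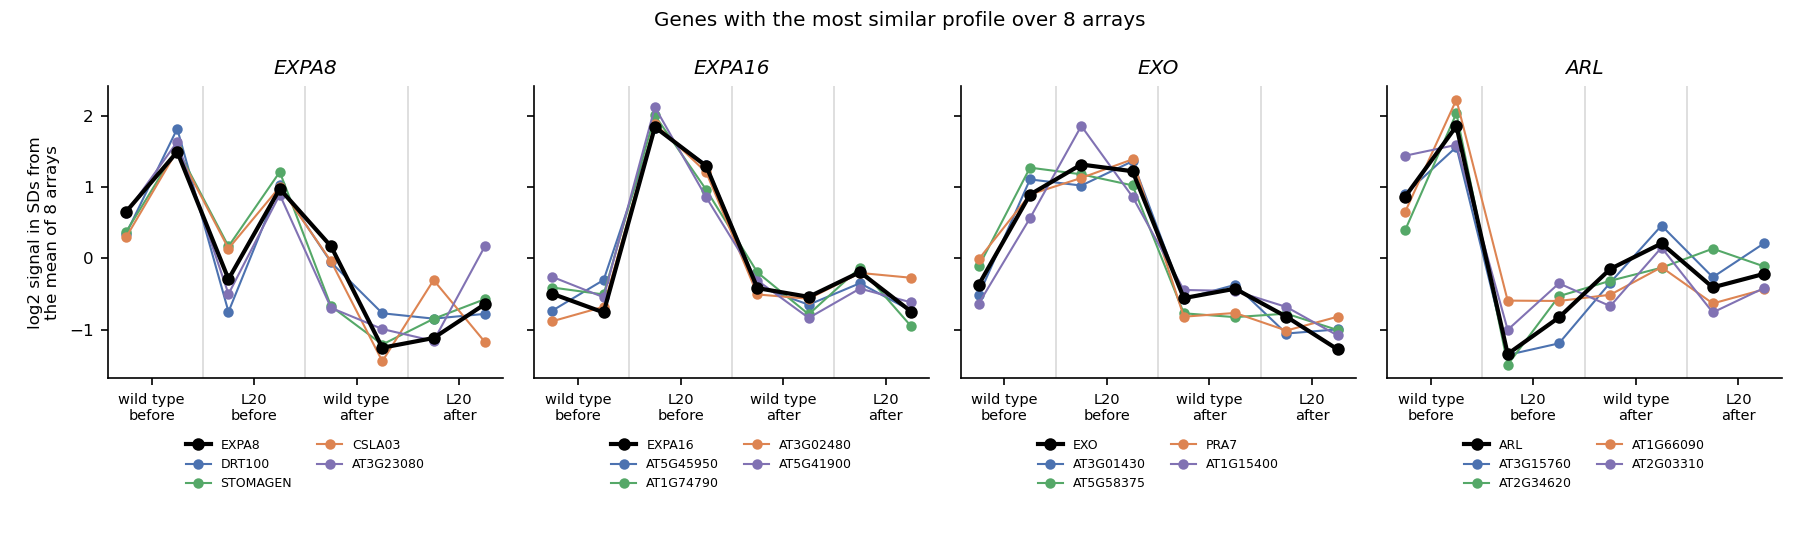
Log2 signal of EXPA8, EXPA16, EXO and ARL (black) and of the 4 genes most like each (colours), in standard deviations from the gene's mean over 8 arrays (vertical axis), with replicates 1 and 2 of each group from left to right. The EXPA16 set peaks in L20 before cold, each gene of the EXO set has its lowest array in L20 after cold, and each gene of the ARL set has its highest arrays in wild type before cold.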

How the data were processed

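The authors deposited 1 table of log2 signals for 22810 probe sets and 8 arrays. The submitters' processing notes name RMA, which corrects background, normalizes between arrays and summarises probes; no version is given in the sources used here. Normalization of this kind can remove changes common to most genes. The arrays still differed in the deposited values, with upper quartiles from 6.28 to 6.64 in log2 signal. Tests leave out 64 control probe sets. Genes were named from the platform annotation, updated by Entrez identifier to RefSeq (TAIR10.1). No sequences or coordinates were used here.

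Contrasts were tested with limma 3.58.1 (R 4.3.3), two-sided, with a mean per group over 8 arrays and eBayes. The p-values were adjusted by Benjamini-Hochberg over 22746 probe sets. Standard errors and intervals are from this fit unless the replicate block is named. The spread of each gene is pooled over all 8 arrays, also those on which EXPA16, EXO or ARL was chosen. The code was checked on simulated arrays. With 2 against 2 arrays, the smallest exact permutation p is 0.333. The members and lists were chosen with earlier results of these data known. Of each list the text names members called in the fit with 1 mean per group, at most 4, or else the 2 with the smallest p.

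Replicate numbers were taken as a shared batch: differences of replicate 1 minus 2 correlated between all groups, at 0.34 to 0.84. This pairing comes from the data, not the labels. Alternatives were the replicate block, trend and robust eBayes, quantile normalization, median centring, a filter on dim probe sets, only the arrays compared, and each array left out.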

Additional observations from a re-analysis of the deposited data

Results flagged for a closer look

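Some genes moved in opposite directions in the groups compared, in both replicate numbers. These differences were not tested. For the members, the contrasts chose them or share arrays with those that did. EXPA4 and XTH27 are not members and were named by p within their lists. The cold response of EXPA16 was upwards in wild type, by 0.07 and 0.18, and downwards in L20, a difference of -1.80 on the log2 scale. The wild-type changes of EXPA16 were smaller than their standard error of 0.24. That of ARL was downwards in wild type and upwards in L20, a difference of 2.39. Opposite cold responses in both replicate numbers were seen in 8.66% of all probe sets. L20 minus wild type was positive before and negative after cold for EXO (a difference of -1.81), EXPA4 (-0.68) and XTH27 (-1.12). Such a change of sign was seen in 11.5% of all probe sets. The values after cold of EXPA4 (-0.17 ± 0.29) and XTH27 (-0.21 ± 0.53) were smaller than their standard errors (log2 difference, SE).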

How the results depend on the processing

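The 5 tests of the members on arrays that did not choose them missed under every alternative that gave a value, the replicate block included. Their direction also held, except that with 1 array left out EXPA8 after cold ran from -0.78 to 0.28 and EXPA16 after cold from -0.22 to 0.24 (L20 minus wild type, log2 difference). EXPA8 turned without replicate 1 of wild type after cold, and EXPA16 without replicate 2 of that group or replicate 1 of L20 after cold. EXPA16 did not pass the filter on dim probe sets, so that filter gave no value for it, and the other 3 members passed. Of the descriptive differences, 10 values moved by more than the spread between replicates, all for EXO or ARL without 1 of the arrays of wild type before cold. The correlation of each member with its most similar gene lay between 0.92 and 1.00 under 11 alternatives chosen after seeing the data.

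The number of probe sets called depended on the fit, and the cause was not tested. For cold in wild type (121) it was 357 with the replicate block, 183 with quantile normalization, 65 with only the 4 arrays compared and 574 with the block, trend and robust settings together, the last chosen after seeing the data. For cold in L20 (86) these were 580, 204, 0 and 784, and 140 with the filter. For the lines before cold (4) they were 38, 17, 1 and 139, and 8 with the filter. With 1 array left out, counts ran from 0 to 91 for cold in wild type (0 without replicate 2 of wild type after cold, 6 without replicate 1 of it, 15 without either array before cold), from 0 to 34 for cold in L20 (0 without replicate 1 of L20 before cold) and were 0 before cold without any 1 array. After cold every fit called 0. With 2 arrays a group, the number of arrays limits the precision.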

Other observations

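The expansin-like genes EXLA1 and EXLA2, singled out after their values were seen, had unchilled L20 near the chilled level. EXLA3 did not: its mean log2 signal was 4.31 in wild type and 4.34 in L20 before cold. After cold its mean was 5.10 in wild type and 4.74 in L20. EXLA1 had log2 signals of 6.53 and 7.46 in wild type before cold, 9.00 and 8.32 in L20 before cold, 8.96 and 9.02 in wild type after cold, and 8.62 and 9.32 in L20 after cold. The wild-type arrays before cold were the lowest, and the other groups overlapped. With cold in wild type EXLA1 differed by 2.00 ± 0.39 and EXLA2 by 1.50 ± 0.42, and between the lines before cold by 1.67 ± 0.39 and 1.12 ± 0.42 (log2 difference, SE). None of these differences passed over all probe sets, with or without the replicate block. EXLA1 and EXLA2 were picked for these values, so no p-values are given.

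BIM1, which encodes a partner of the brassinosteroid-responsive factor BES1, had the profile most opposed to that of ARL over the 8 arrays, at a Pearson correlation of -0.97. It was picked for this value from all genes with a standard deviation of at least 0.5, so it gets no test. BIM1 had log2 signals of 6.54 and 6.31 in wild type before cold and 7.94 and 7.65 in L20 before cold. On the 4 chilled arrays it lay between 7.08 and 7.51, between the unchilled groups.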
